A study of Mus musculus with 6 samples.

Results

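DNA repair genes were followed through RNA-seq of mouse embryonic fibroblasts (MEFs) treated with small molecules that act on the mitofusins. Members were the genes of the count table whose symbols belong to the Rad, Xrcc, Fanc, Ercc, Msh, Mlh, Pms, Parp, Pold, Pole and Brca families, or are Atm, Atr, Chek1 or Chek2, with at least 10 counts in every library. Of the 55291 genes listed, 63 matched by symbol and 62 reached the count minimum. The gene left out was Msh4, a partner of Msh5 in meiosis, which had 6 and 4 counts in the vehicle libraries, 15 and 9 under MASM7 and 8 and 5 under MFI8. The member nearest to the minimum, Msh5, had 64 to 100 counts. All 62 were among the 14290 genes tested.

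The series holds 6 libraries of polyadenylated RNA from wild-type (WT) MEFs, with 2 libraries each for vehicle, MASM7 and MFI8. MASM7 is described in the study as an activator of mitofusins, the outer membrane proteins that fuse mitochondria, and MFI8 as an inhibitor. The study also asked whether blocking fusion leads to DNA damage, and it reports more foci of a damage marker in WT MEFs with MFI8. From its RNA-seq it further reports higher expression of several DNA damage response genes with MFI8, which its text does not name. Repair genes are of interest here for that reason. All groups were the same WT MEFs, which came from another laboratory, and vehicle was the DMSO in which the compounds were dissolved. Treatment lasted 6 h, at 1 μM for MASM7 and 20 μM for MFI8, as the legend of the expression panel in the study states, and the time for vehicle is not given there. Compound and concentration therefore cannot be told apart. The design text calls the 2 libraries of a group independent biological replicates, and it names no animals, cultures or batches.

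Cells repair DNA by separate routes that share a few proteins. Checkpoint kinases sense breaks and stalled forks and hold the cell cycle. Homologous recombination copies a sister chromatid, end joining religates broken ends, and the Fanconi anaemia proteins unhook crosslinks between strands. Nucleotide excision repair cuts out bulky lesions, mismatch repair corrects replication errors, and single-strand break repair works around Parp1 and Xrcc1. DNA polymerases delta and epsilon copy the genome and fill repair gaps. Many of these genes are expressed most in cells that are replicating DNA, as cultured fibroblasts do.

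Libraries held 22791792 to 30677751 counts on genes, and a member had between 64 and 19805 counts in a library. Fibroblast genes were abundant, with Vim at 1966 to 2531 TPM (a library's share of transcripts, which accounts for transcript length) and Col1a1 at 1106 to 1435 TPM, although Thy1 was at 0.28 to 0.75 TPM. The summed level of the 10 fibroblast markers was 5424 to 6972 TPM and was lower in replicate 2 than in replicate 1 of each group. Summed levels were 1.03 to 1.69 TPM for 5 epithelial markers, 0.212 to 0.433 for 4 endothelial markers and 13.4 to 16.9 for 5 haematopoietic markers, and Ptprc, the pan-leukocyte gene, was at or under 0.013 TPM. Of 4 neural markers Sox2 was listed at 0, while Nes (211 to 246 TPM) and Tubb3 (47.1 to 68.4 TPM) were present. The median log2 fold change of the fibroblast markers was -0.24 with MFI8 and 0.00 with MASM7, and Tubb3 was at 0.40 and 0.39. None of these markers passed without the replicate block that is described below, and with it Col3a1, Pdgfra, Pdgfrb and S100a4 passed as lower with MFI8 (-0.53, -0.38, -0.34 and -0.16) and Tubb3 as higher with both compounds. Their part in the results below was not tested.

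The members spanned a wide range of expression. In vehicle the highest was Rad23b, which hands damaged DNA to excision repair, at 391 ± 10.5 TPM (SD, n = 2), and the lowest was Msh5 at 1.97 ± 0.33 TPM. The median over the 62 genes was 24.6 TPM in vehicle, beside 18.9 TPM over all genes tested. Each family ran from highly expressed subunits to ones near 10 TPM or below, except Rad18, which stands alone (50.2 TPM), the replicative polymerases and the single-strand break genes, the last 2 with lowest members of Pole2 (27.8 TPM in vehicle) and Xrcc1 (25.3 TPM).

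**Figure D1:**
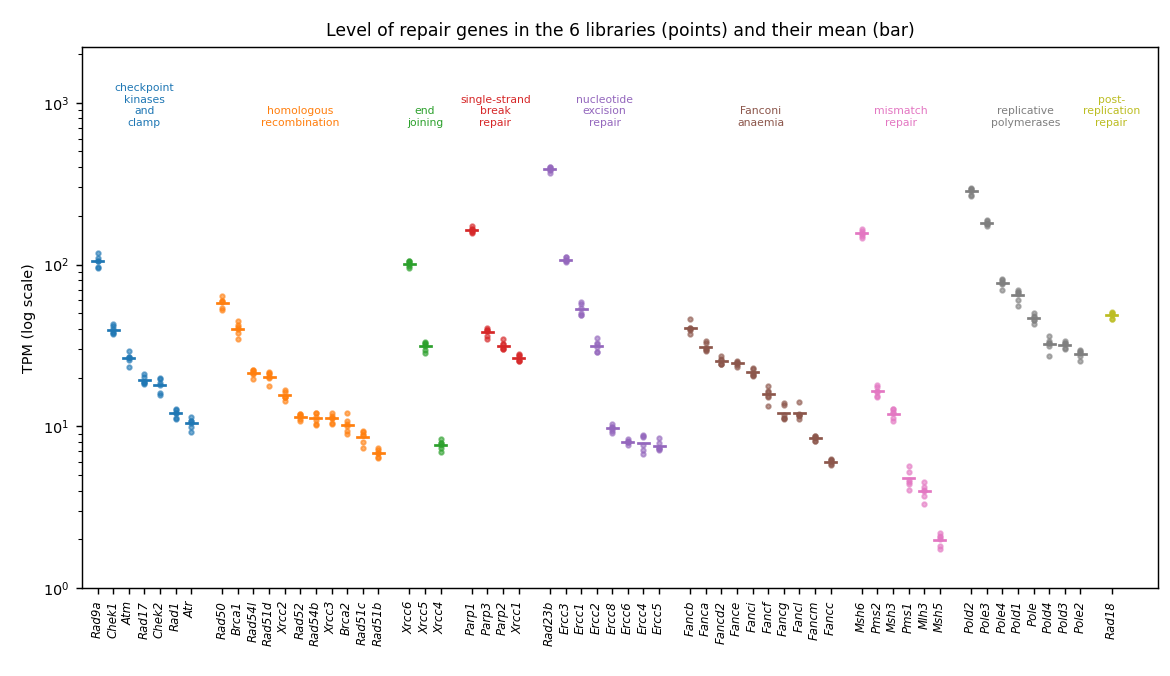
Expression of 58 of the repair genes in TPM on a log axis, by family; points are the 6 libraries and bars their means. Rad23b (mean 389 TPM), Pold2 (283), Pole3 (181), Parp1 (163) and Msh6 (156) stood highest, Msh5 (1.99) lowest, and the 6 libraries of a gene lay close together relative to the differences between genes.

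Partners and close relatives were not expressed at equal levels, and their order was the same in every library. Of the mismatch sensors, the TPM of Msh6, which serves single mismatches, was 11.8 to 13.7 times that of Msh3, which serves larger loops. Of the Ku pair that caps broken ends, Xrcc6 was 3.08 to 3.48 times Xrcc5. The regulatory subunit Pold2 was 4.10 to 4.84 times the catalytic Pold1, and Pole3 was 3.73 to 4.07 times the catalytic Pole. Rad9a, a subunit of the checkpoint clamp, was 7.49 to 9.25 times its clamp partner Rad1. The nuclease subunit Ercc1 was 5.57 to 7.96 times Ercc4, Parp1 was 4.90 to 5.46 times Parp2, and Brca1 was 3.50 to 4.16 times Brca2. These pairs were chosen after the values were seen. None of the ratios crossed 1 in any library, and their spread over libraries was small beside the ratios themselves.

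Without a replicate block, neither compound moved a repair gene past the threshold. For MFI8 against vehicle, the quasi-likelihood test of edgeR, with p adjusted by Benjamini and Hochberg's method over the 14290 genes, called 0 of 62 members at an adjusted p under 0.05, beside 0% of all genes. The smallest adjusted p of a member was 0.357. For MASM7 against vehicle it called 0 members, again beside 0% of all genes, with a smallest adjusted p of 0.473. For MFI8 against MASM7 the count was 0, beside 0%, with a smallest adjusted p of 0.509. DESeq2's Wald test, which called 48, 2 and 29 genes in these 3 comparisons, also called 0 members in each. The 2 comparisons with vehicle share the vehicle libraries and are not independent. In these bulk libraries fewer cells expressing a gene and less RNA of it per cell cannot be told apart.

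The differences were small for every member. Log2 fold changes ran from -0.24 to 0.26 with MFI8, from -0.27 to 0.25 with MASM7 and from -0.26 to 0.27 between the compounds, with a median standard error of 0.075 to 0.076. Over the members' 95% intervals, the outermost bounds with MFI8 were 0.683-fold and 1.39-fold, and with MASM7 0.675-fold and 1.43-fold, so a change larger than that lay outside the interval of each repair gene. The widest intervals belonged to genes with few counts, such as Msh5, whose standard error was 0.205 with MFI8. Their median log2 fold change was 0.02 with MFI8 and -0.01 with MASM7, beside 0.00 for all genes tested in both. With MFI8 37 members lay above 0 and 25 below, and with MASM7 29 and 33.

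At an unadjusted p under 0.05, edgeR gave 4 members for MFI8 (6.45% of 62), beside 9.86% of all genes tested. All 4 were higher, namely Rad9a, Pold1, Fanca and Fancg, and 0 were lower, where all genes gave 5.21% higher and 4.65% lower. For MASM7 it gave 10 members (16.1%), beside 10.2% of all genes. Of these 5 were higher (Pold1, Pold2, Ercc1, Ercc2 and Rad9a) and 5 lower (Msh3, Brca1, Rad50 and Rad51c among them), where all genes gave 5.32% higher and 4.88% lower. Between the compounds it gave 7 members (11.3%), beside 7.18%, with Brca1, Brca2, Rad50, Rad54b and Fancg higher with MFI8 and Ercc1 and Rad23b lower, where all genes gave 4.23% higher and 2.95% lower. Libraries of the 2 groups did not overlap in CPM (the share of a library's counts, scaled by TMM factors) for 26 members with MFI8 (41.9%, beside 40.2% of all genes), for 27 with MASM7 (43.5%, beside 42.8%) and for 27 between the compounds (43.5%, beside 39.2%). The members' shares of non-overlapping genes were thus close to those of all genes.

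**Figure D2:**
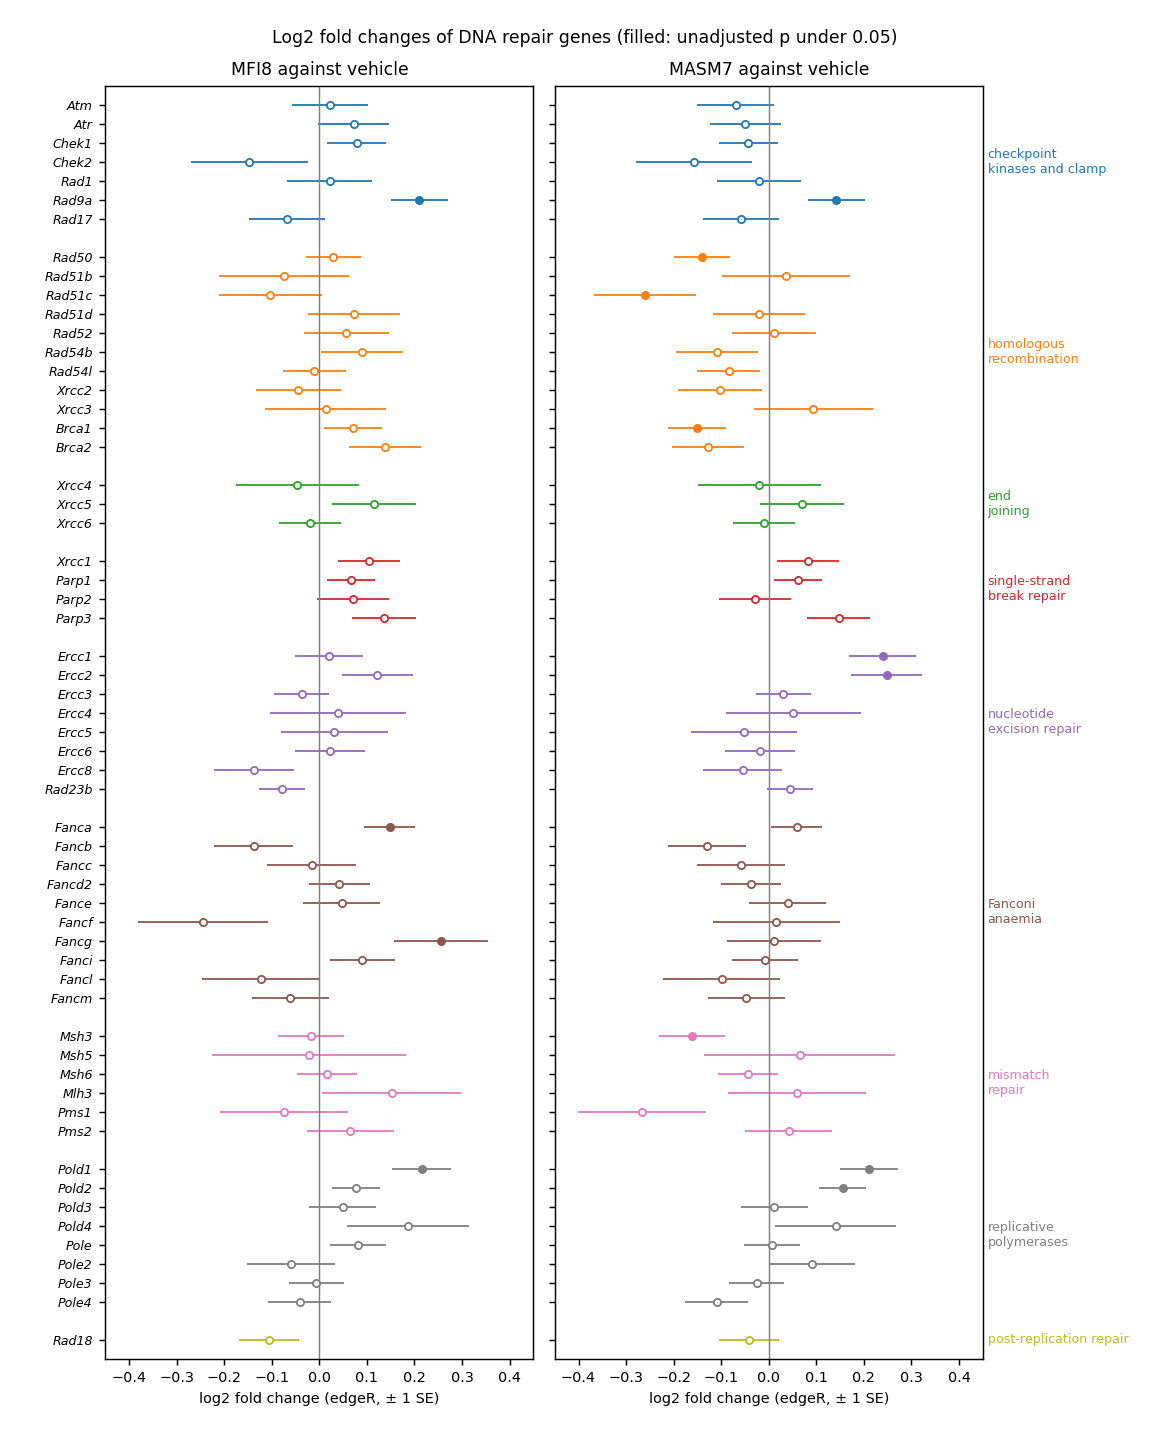
Log2 fold changes of 58 of the repair genes by family for MFI8 against vehicle and MASM7 against vehicle, with bars of ± 1 standard error from edgeR; filled points have an unadjusted p under 0.05. All points lie between -0.27 and 0.26, and filled points stand on the right for MFI8 (4 genes) and on both sides for MASM7 (5 genes to the right and 4 to the left).

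The replicate numbers in the labels changed the number of calls. With the replicate number as a block in edgeR, 2 members were called for MFI8 (3.23%, beside 5.04% of all genes), 5 for MASM7 (8.06%, beside 3.88%) and 3 between the compounds (4.84%, beside 3.07%). The genes were Pold1 and Rad9a for MFI8, Pold1, Pold2, Ercc1 and Ercc2 among the 5 for MASM7, and Brca1, Brca2 and Ercc1 between the compounds. With DESeq2 and the same block, 0 members were called in each comparison, beside 0.815%, 0.68% and 0.404% of all genes. When offsets for each library's trend with GC content and transcript length were added to the block, an alternative chosen after the data were seen, the calls were 0 for each compound against vehicle, beside 4.89% and 1.6% of all genes, and 3 between them (Brca1, Ercc1 and Rad23b), beside 5.65%. The calls with the block are given with their families below, since they depend on it.

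The replicative polymerases held Pold1, which had the smallest p of any member with MASM7 and the next smallest after Rad9a with MFI8. Pold1 (ENSMUSG00000038644.14, chr7:44532746-44548849 in GRCm38, minus strand), the catalytic subunit of polymerase delta, was at 83.7 and 76.1 CPM with vehicle, 90.9 and 93.9 under MASM7 and 91.9 and 93.5 under MFI8. All treated libraries lay above both vehicle libraries, and the log2 difference between the compounds was 0.00 (95% interval -0.13 to 0.14). Its level was 1.16-fold that of vehicle with each compound (0.22 with MFI8 and 0.21 with MASM7 on the log2 scale, standard error 0.062 for both, edgeR adjusted p = 0.357 and 0.473). With the block it passed for both (edgeR adjusted p = 0.0181 and 0.0266), and with the block and the offsets it did not (log2 fold changes 0.11 and 0.08, adjusted p = 0.163 and 0.442). Pold2 (ENSMUSG00000020471.11, chr11:5872180-5878292), which joins the other subunits to Pold1, was at 143 and 144 CPM with vehicle, 158 and 162 under MASM7 and 153 and 150 under MFI8. The groups did not overlap, and the order was vehicle, MFI8, MASM7. Its log2 fold change with MASM7 was 0.16 (standard error 0.050, edgeR adjusted p = 0.473, and 0.0497 with the block), and with block and offsets it was 0.01 (adjusted p = 0.972). The accessory subunits Pold3 and Pold4 were also above 0 with both compounds, Pold4 at 0.19 with MFI8 and 0.14 with MASM7, each with standard errors of 0.13. In polymerase epsilon, the leading strand enzyme, the catalytic gene Pole was at 0.08 and 0.01. Its small subunits lay on both sides of 0 with MASM7, from -0.11 for Pole4 to 0.09 for Pole2, the least expressed of the family. Of the 8 genes, 1 with MFI8 (12.5%) and 2 with MASM7 (25.0%) had an unadjusted p under 0.05, beside 9.86% and 10.2% of all genes. With the offsets 1 and 0 did, beside 7.71% and 5.16% of all genes.

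**Figure D3:**
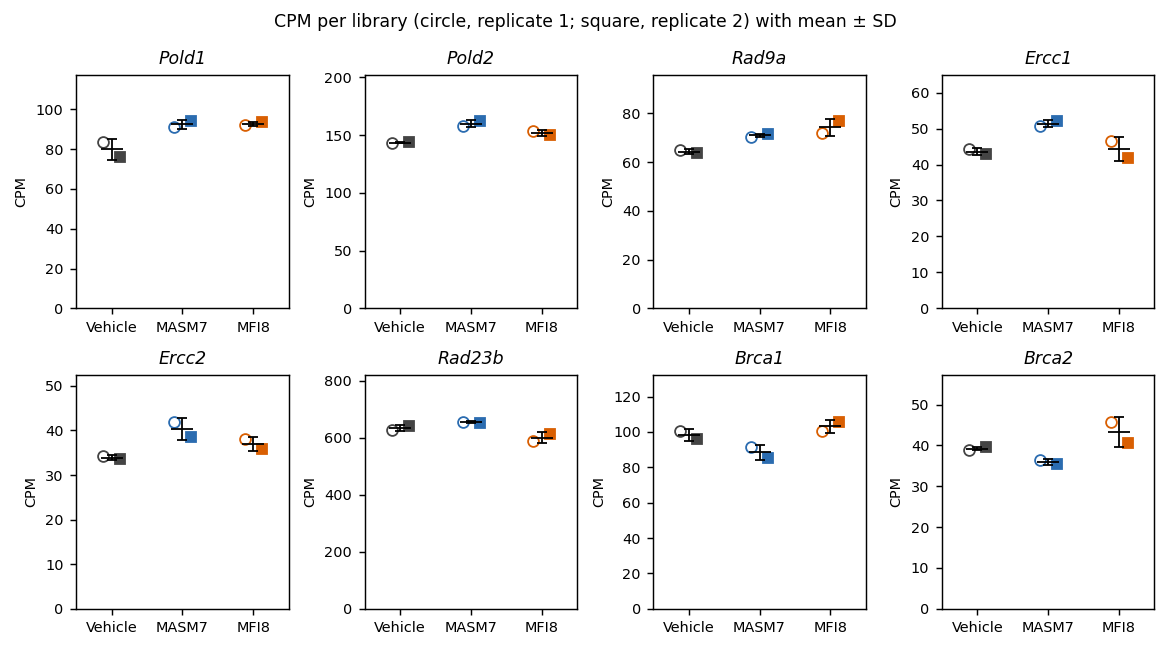
CPM in each library for 8 repair genes, with circles for replicate 1, squares for replicate 2 and black bars for the mean ± SD of 2 libraries; axes start at 0. Pold1 and Rad9a stand above vehicle with both compounds, Ercc1 with MASM7 alone, Brca1 and Brca2 are lowest with MASM7, Rad23b is lowest with MFI8, and all differences are small relative to the level.

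In the checkpoint family, Rad9a had the smallest p with both compounds. Rad9a (ENSMUSG00000024824.7, chr19:4195196-4201662, minus strand) encodes a subunit of the clamp that is loaded at damaged DNA and activates Atr. It was at 65.0 and 63.6 CPM with vehicle, 70.5 and 71.4 under MASM7 and 71.9 and 76.7 under MFI8. Both compounds lay above vehicle without overlap. The log2 fold change was 0.21 with MFI8 and 0.14 with MASM7 (standard errors 0.060 and 0.059, edgeR adjusted p = 0.357 and 0.479), and with the block the first passed (adjusted p = 0.025) and the second did not (0.137). With block and offsets they were 0.14 and 0.03 (adjusted p = 0.0904 and 0.832). Of its exons 225 bases overlap those of Ppp1ca on the other strand, and the strand setting of the counting is not given in the sources used here, so its counts may hold reads of Ppp1ca. The kinases start and carry the signal. Atm was at 0.02 with MFI8 and -0.07 with MASM7, Atr, the least expressed of the family, at 0.07 and -0.05, and Chek1 at 0.08 and -0.04. Chek2 was at -0.15 and -0.16 with standard errors of 0.12. The clamp gene Rad1 and the clamp loader gene Rad17 were within 0.07 of 0 with both compounds. With MASM7 6 of the 7 genes lay below 0 and Rad9a above, while with MFI8 5 lay above. The offsets for GC content and length alone reversed the MASM7 tally, with 6 genes above 0 and Chek2 below, and the family median was then 0.05 in place of -0.05. With MFI8 the offsets brought Chek1 to 0.15 and Atr to 0.12 (standard errors 0.057 and 0.058, edgeR adjusted p = 0.607 and 0.684), beside 0.14 for Rad9a.

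Homologous recombination had 4 of the 7 members with an unadjusted p under 0.05 between the compounds. Its median log2 fold change was 0.02 with MFI8 and -0.09 with MASM7, and 9 of 12 members were higher with MFI8 than with MASM7 (median difference 0.08). Brca1 (ENSMUSG00000017146.12, chr11:101488764-101551955, minus strand), which prepares and directs recombination, was at 100 and 95.8 CPM with vehicle, 91.6 and 85.3 under MASM7 and 100 and 106 under MFI8. Both MASM7 libraries lay below all others, while MFI8 overlapped vehicle. The difference between MFI8 and MASM7 was 0.22 (standard error 0.061, edgeR adjusted p = 0.509), and 0.22 with the block (adjusted p = 0.0138) and 0.17 with block and offsets (0.0145). Brca2 (ENSMUSG00000041147.10, chr5:150522630-150570329), which works in strand exchange, was at 38.9 and 39.5 CPM with vehicle, 36.4 and 35.3 under MASM7 and 45.8 and 40.6 under MFI8. The 3 groups did not overlap and ran MASM7, vehicle, MFI8. The difference between the compounds was 0.27 (standard error 0.075, edgeR adjusted p = 0.534), and with the block it passed (adjusted p = 0.0182) and with block and offsets it did not (0.0613). Rad50, part of the complex that trims broken ends and the most highly expressed of the family, was at 91.3 and 88.8 CPM with vehicle, 83.0 and 80.3 under MASM7 and 88.8 and 94.8 under MFI8. Its difference between the compounds was 0.17 (standard error 0.058, edgeR adjusted p = 0.596). Rad51c, which assists strand exchange, was at -0.26 with MASM7 (standard error 0.11), from 11.5 and 11.6 CPM to 9.23 and 10.1. Rad51b, the least expressed of the family, was at 0.04 and Xrcc3 at 0.09 in the same comparison. At an unadjusted p under 0.05 the family had 0 genes for MFI8, 3 lower for MASM7 (25.0% of 12) and the 4 that were higher with MFI8 than with MASM7 (33.3%), beside 9.86%, 10.2% and 7.18% of all genes. With the offsets these counts were 0, 0 and 3, beside 7.71%, 5.16% and 7.61% of all genes, and the MASM7 median was -0.04.

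Nucleotide excision repair held a pair of neighbouring genes that lay above vehicle with MASM7. Ercc1 (ENSMUSG00000003549.9, chr7:19344778-19356524, plus strand), the partner of the Ercc4 nuclease, was at 44.2 and 42.8 CPM with vehicle, 50.7 and 52.0 under MASM7 and 46.6 and 41.9 under MFI8. The MASM7 libraries lay above all others, and MFI8 overlapped vehicle. The log2 fold change with MASM7 was 0.24 (1.18-fold, standard error 0.071, edgeR adjusted p = 0.473), and with the block it passed (adjusted p = 0.027), while with block and offsets it was 0.12 (adjusted p = 0.314). Between MFI8 and MASM7 the difference was -0.22 (standard error 0.070, edgeR adjusted p = 0.582), which passed with the block (adjusted p = 0.0419) and with block and offsets (0.0367). Ercc2 (ENSMUSG00000030400.17, chr7:19382010-19395694, plus strand), a helicase of TFIIH, lies 25485 bases further along the chromosome. It was at 34.3 and 33.5 CPM with vehicle, 42.0 and 38.6 under MASM7 and 38.1 and 35.8 under MFI8, so the groups did not overlap. Its log2 fold change with MASM7 was 0.25 (1.19-fold, standard error 0.074, edgeR adjusted p = 0.473, and 0.0287 with the block), and with block and offsets it was 0.12 (adjusted p = 0.385). Exons of both genes overlap genes on the other strand, Ercc1 by 106 bases with Cd3eap and Ercc2 by 744 bases with Klc3.

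The rest of that family lay closer to 0 with MASM7. Ercc3, the other TFIIH helicase, was at 0.03 with MASM7, the nuclease gene Ercc4 at 0.05 and Ercc5, another nuclease and the least expressed of the family, at -0.05. The transcription-coupled genes Ercc6 and Ercc8 were at -0.02 and -0.05. With MFI8 the member with the smallest p was Ercc8, at -0.14 (standard error 0.084, edgeR adjusted p = 0.615). Rad23b was at 626 and 642 CPM with vehicle, 656 and 651 under MASM7 and 587 and 613 under MFI8, without overlap between groups. Its difference between MFI8 and MASM7 was -0.12 (standard error 0.048, edgeR adjusted p = 0.649, 0.134 with the block and 0.00331 with block and offsets).

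Mismatch repair genes lay on both sides of 0 with MASM7, 4 above and 4 below. Msh3 was at 39.0 and 40.2 CPM with vehicle and at 36.2 and 34.6 with MASM7, so the groups did not overlap. Its log2 fold change with MASM7 was -0.16 (standard error 0.069, edgeR adjusted p = 0.483, and 0.147 with the block). Msh6 was at -0.04 (standard error 0.063). Pms2, the subunit that nicks the strand to be repaired, and its relative Pms1 were at 0.04 and -0.27, with standard errors of 0.091 and 0.13. Msh5, a meiotic gene and the least expressed member, was at 0.07 with a standard error of 0.20. With MFI8 Msh3 was at -0.02 and Msh6 at 0.02, Mlh3 had the highest value of the family at 0.15, and 0 of the 8 genes had an unadjusted p under 0.05, beside 9.86% of all genes. With MASM7 2 of the 8 had one, both lower (25.0%, beside 10.2%).

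Fanconi anaemia genes with the smallest p for MFI8 belonged to the core complex that ubiquitinates Fancd2 and Fanci. Fanca stood at 81.4 and 80.1 CPM with MFI8, above 76.2 and 75.6 with MASM7 and 72.5 and 73.3 with vehicle. Treatment with MFI8 gave a log2 fold change of 0.15 (standard error 0.054, edgeR adjusted p = 0.425, and 0.108 with the block), and 920 bases of its exons overlap Zfp276 on the other strand. Fancg, another core gene, was at 12.6 and 11.8 CPM with vehicle, 12.2 and 12.3 under MASM7 and 14.3 and 14.8 under MFI8, a log2 fold change of 0.26 (standard error 0.099, edgeR adjusted p = 0.445). The MFI8 libraries of both genes lay above the other 4. Fancf, also of the core, had the lowest value of any member with MFI8, -0.24, with a standard error of 0.14 at 6.29 to 8.52 CPM. Fancb, the most highly expressed of the family by TPM, was at -0.14 and -0.13, and Fancc, the least expressed, at -0.02 and -0.06. The substrates Fancd2 and Fanci were at 0.04 and 0.09 with MFI8 and at -0.04 and -0.01 with MASM7. The family's medians of 0.01 and -0.02 thus joined genes on both sides of 0.

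End joining and single-strand break repair showed small values only. The Ku genes Xrcc5 and Xrcc6 were at 0.11 and -0.02 with MFI8 and at 0.07 and -0.01 with MASM7, and Xrcc4, the partner of ligase IV and the least expressed of these, at -0.05 and -0.02. All 4 single-strand break genes lay above 0 with MFI8, from 0.07 for Parp1 to 0.14 for Parp3, with 0 of 4 past an unadjusted p of 0.05, beside 9.86% of all genes. Parp3, which acts at double-strand breaks as well, was at 38.2 and 36.2 CPM with vehicle, 40.8 and 41.5 under MASM7 and 40.3 and 41.5 under MFI8 (log2 fold changes 0.14 and 0.15, standard error 0.067 for both, edgeR adjusted p = 0.536 and 0.495). Parp1, the main sensor of nicks, was at 237 and 236 CPM with vehicle and 243 to 253 with the compounds. The scaffold gene Xrcc1 was at 0.10 and 0.08, and with the offsets at 0.01 and -0.02. The median of the single-strand break genes with MFI8 was 0.09, and 0.05 with the offsets. Rad18, the ubiquitin ligase that marks the sliding clamp at stalled forks, was at 83.4 and 81.2 CPM with vehicle, 83.0 and 77.0 under MASM7 and 78.9 and 74.2 under MFI8. Its log2 fold changes were -0.11 and -0.04, with standard errors of 0.063 and 0.062.

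The members' fold changes moved with the GC content of their exons. All genes were cut into 3 GC classes of about equal size. The 15 members in the upper GC class (above 53.1%) had a median log2 fold change of 0.08 with MFI8 and 0.09 with MASM7, and the 30 in the lower GC class (below 47.0%) of -0.03 and -0.05. All genes tested showed the same order, with medians of 0.07 and 0.10 in the upper GC class and -0.06 and -0.08 in the lower. Across the 62 members Spearman's rho between GC content and log2 fold change was 0.37 with MFI8 and 0.66 with MASM7, and across the 13989 genes with an annotated GC content 0.31 and 0.46. The points share the same 6 libraries and genes are not independent, so these are descriptions without a p. The 4 members called higher with the block for MASM7 had GC contents of 57.1% (Ercc1), 58.7% (Ercc2), 60.6% (Pold1) and 58.7% (Pold2). With the offsets for GC content and length alone, members at an unadjusted p under 0.05 numbered 5 for MFI8, 3 for MASM7 and 7 between the compounds, in place of 4, 10 and 7. The shares of all genes with the offsets were 7.71%, 5.16% and 7.61%, so that the MASM7 share was lower over all genes as well. The median of all members for MASM7 then lay at 0.01 in place of -0.01. Whether the trend arose in the cells or in library preparation was not tested.

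**Figure D4:**
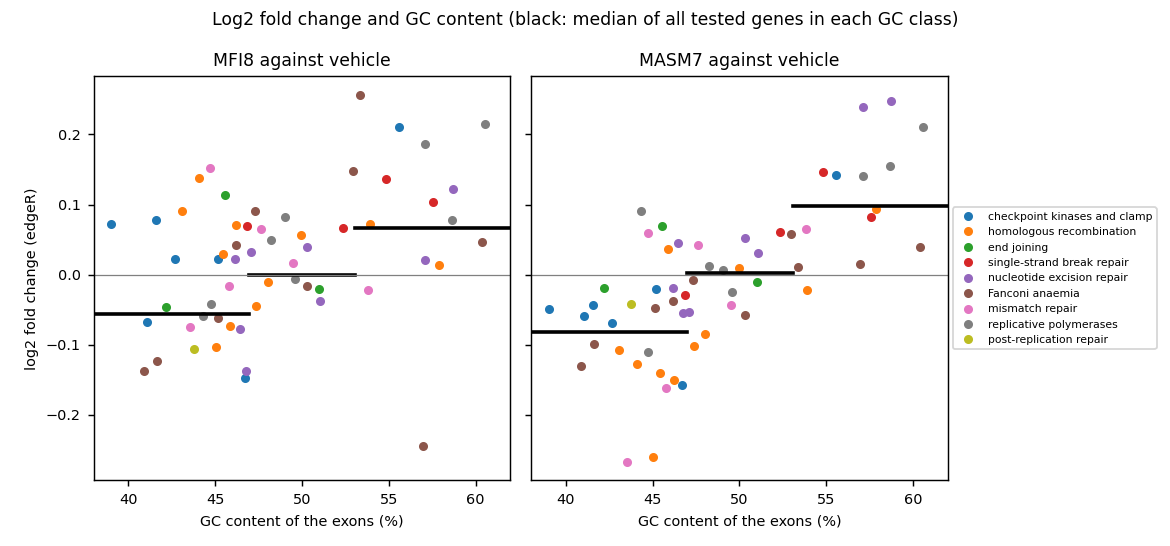
Log2 fold change of 58 of the repair genes against the GC content of its exons in percent, for MFI8 and MASM7 against vehicle, coloured by family; black lines are the medians of all tested genes in the lowest, middle and highest GC class. Points lie higher on the right with both compounds (rho 0.37 and 0.66 over all 62), as the medians of all genes do, and the highest points with MASM7 are GC-rich genes such as Ercc2 and Pold1.

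Promoter windows from RefSeq (GRCm38.p6), 250 bases before to 50 after a start, were at hand for 50 of the 62 members, 58 windows in all. Pold1, Brca2, Brca1, Ercc1 and Ercc2 are shown, since each was called with the block and had 1 window in the table (Pold2, also called, had 2). The windows lie at chr7:44548766-44549065 (minus strand), chr5:150522371-150522670 (plus), chr11:101551906-101552205 (minus), chr7:19344821-19345120 (plus) and chr7:19381767-19382066 (plus). Capitals mark E2F words (TTTCCCGC, TTTGGCGC, TTTCGCGC or TTTGCCGC), GC boxes (GGGCGG) and CCAAT boxes (CCAAT), each searched on both strands, so that the reverse complement also counts.
Pold1: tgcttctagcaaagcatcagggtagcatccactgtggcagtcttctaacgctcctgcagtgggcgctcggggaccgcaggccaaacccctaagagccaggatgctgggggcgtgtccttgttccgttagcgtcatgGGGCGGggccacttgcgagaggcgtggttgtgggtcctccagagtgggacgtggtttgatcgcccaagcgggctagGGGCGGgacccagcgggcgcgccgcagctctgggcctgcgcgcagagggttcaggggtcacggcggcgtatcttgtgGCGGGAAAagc
Brca2: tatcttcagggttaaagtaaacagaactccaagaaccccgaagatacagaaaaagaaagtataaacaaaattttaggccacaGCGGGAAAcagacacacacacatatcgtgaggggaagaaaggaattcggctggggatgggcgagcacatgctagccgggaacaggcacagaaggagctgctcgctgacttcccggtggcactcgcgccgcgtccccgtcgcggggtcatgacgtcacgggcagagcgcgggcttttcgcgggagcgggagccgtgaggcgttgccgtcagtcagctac
Brca1: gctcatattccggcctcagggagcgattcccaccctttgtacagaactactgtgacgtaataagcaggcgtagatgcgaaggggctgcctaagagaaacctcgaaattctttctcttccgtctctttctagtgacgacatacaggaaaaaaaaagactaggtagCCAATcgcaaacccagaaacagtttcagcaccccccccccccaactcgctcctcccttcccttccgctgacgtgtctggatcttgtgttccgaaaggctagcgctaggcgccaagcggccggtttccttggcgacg
Ercc1: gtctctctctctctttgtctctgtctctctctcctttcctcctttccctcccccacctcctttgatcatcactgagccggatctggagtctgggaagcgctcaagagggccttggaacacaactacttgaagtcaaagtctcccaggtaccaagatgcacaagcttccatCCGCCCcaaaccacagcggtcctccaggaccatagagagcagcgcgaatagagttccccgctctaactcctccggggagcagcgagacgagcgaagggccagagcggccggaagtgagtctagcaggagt
Ercc2: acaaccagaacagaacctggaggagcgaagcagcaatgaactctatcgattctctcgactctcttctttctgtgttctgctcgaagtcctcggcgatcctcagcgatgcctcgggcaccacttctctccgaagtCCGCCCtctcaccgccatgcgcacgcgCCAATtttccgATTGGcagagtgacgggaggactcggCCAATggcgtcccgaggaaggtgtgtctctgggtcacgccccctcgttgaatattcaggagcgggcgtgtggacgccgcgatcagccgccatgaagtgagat

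E2F factors drive genes of DNA replication at the start of S phase. An E2F word stood in the window of 12 of the 50 members, Pold1 and Brca2 among those printed, and of 14 of 58 windows (24.1%), beside 4.06% of the 12528 windows of tested genes and 2.26% of all 32851 windows. GC boxes stood in 60.3% of the members' windows, 63.4% of those of tested genes and 35.7% of all, and CCAAT boxes in 53.4%, 38.2% and 37.4%. An E2F word and a GC box shared bases in 1 member window. In Pold1 the E2F word lies 39 bases after the start and 2 GC boxes lie before it, and in Brca2 it lies 168 bases before the start. The 12 members with an E2F word had a median log2 fold change of -0.02 with MFI8 and -0.03 with MASM7, and the 38 without one 0.03 and -0.01. These matches are letters in a window and say nothing of binding.

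Partners of the same pathways that the family names do not take were compared in 8 lists of 115 tested genes. At an unadjusted p under 0.05, 2 were higher and 7 lower with MFI8 (7.83% of 115 in all, beside 9.86% of all genes), and 4 higher and 9 lower with MASM7 (11.3%, beside 10.2%). The adjusted test without the block called 0 in each. Median log2 fold changes were 0.00 with MFI8 and -0.03 with MASM7, and MASM7 had 41 partners above 0 and 74 below. With the offsets the MASM7 median was -0.01. With the block 4 passed for MFI8 (3.48%, beside 5.04% of all genes) and 3 for MASM7 (2.61%, beside 3.88%), so these shares lay near or below those of all genes.

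Checkpoint and break signalling partners lay mostly below 0 with MASM7. Of 18 genes 16 lay below 0 (median -0.05), 3 of them at an unadjusted p under 0.05 (16.7%, beside 10.2% of all genes). The median was -0.01 between the replicate 1 libraries and -0.09 between the replicate 2 libraries. With the offsets it was -0.02. With the block 3 genes passed (16.7%, beside 3.88% of all genes), and with block and offsets 1 of 18 did, beside 1.6%. Clspn, the adaptor through which Atr activates Chek1, was at 86.4 and 83.6 CPM with vehicle, 77.1 and 72.9 under MASM7 and 85.4 and 82.3 under MFI8. Tipin, of the fork protection complex, was at 115 and 106 CPM with vehicle, 102 and 90.3 under MASM7 and 101 and 95.8 under MFI8. Rnf168, a ubiquitin ligase at breaks, was at 61.5 and 62.5 CPM with vehicle, 56.0 and 50.9 under MASM7 and 58.7 and 64.1 under MFI8. All 3 were lower in both MASM7 libraries than in either vehicle library (log2 fold changes -0.18, -0.21 and -0.22), with an edgeR adjusted p of 0.473 each and of 0.0452, 0.0182 and 0.0452 with the block. With MFI8 Tipin was at -0.18 (edgeR adjusted p = 0.455, 0.0391 with the block and 0.121 with block and offsets) and Mre11a, the nuclease partner of Rad50, at -0.10.

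Recombination partners had 3 genes at an unadjusted p under 0.05 with each compound (12.5% of 24), and Fanconi anaemia partners 1 with MFI8 and 3 with MASM7 (10% and 30% of 10), beside 9.86% and 10.2% of all genes. Among the 24 recombination partners, Sfr1 and Rad51ap1, which assist strand exchange, were at -0.21 and -0.20 with MFI8 (edgeR adjusted p = 0.320 and 0.382, and 0.00546 and 0.040 with the block). With MASM7 the helicase gene Wrn was at -0.20 and the nuclease gene Mus81 at 0.20. Faap100, of the Fanconi core complex, had the largest value of the 115 partners with MFI8, 0.34, and was at 0.23 with MASM7, from 27.4 and 25.6 CPM with vehicle to 34.5 and 32.5 with MFI8 and 29.8 and 32.4 with MASM7 (edgeR adjusted p = 0.304 and 0.473, and 0.00577 and 0.0654 with the block). Its list, 10 genes, also held Usp1, the deubiquitinase of Fancd2, at -0.11 and -0.13, and Brip1 at -0.05 and -0.20. With MASM7 10 of 14 nucleotide excision partners and 10 of 12 translesion partners lay below 0 (medians -0.08 and -0.08, and -0.011 and -0.015 with the offsets). Of 14 nucleotide excision partners Cetn2 was at -0.17 and -0.18, Cdk7 at -0.16 and -0.09 and Gtf2h3 at 0.03 and 0.15. Of 12 translesion partners Ube2b, which works with Rad18, was at -0.17 with both, Ube2n at -0.13 and -0.01 and Primpol at 0.06 and -0.26. The edgeR adjusted p of Ube2b was 0.473 and 0.479 without the block, 0.0528 and 0.0526 with it, and 0.0445 and 0.0394 with block and offsets.

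The 22 tested genes of base excision had medians of 0.03 and 0.05, with Apex1 at -0.12 and 0.04, Tdp1 at 0.17 and 0.13, Nthl1 at 0.05 and 0.26 and Ogg1 at 0.07 and 0.15. For 9 end joining partners they were 0.04 and 0.02, with Prkdc at 0.12 and -0.02, Polm at 0.06 and 0.18 and Shld1 at 0.04 and 0.27. For 6 partners in mismatch repair and clamp loading they were -0.01 and -0.07, with Rfc1 at -0.04 and -0.15, Rfc3 at -0.02 and -0.10 and Rfc4 at -0.01 and -0.10. With the offsets the medians were -0.01 and 0.01 for base excision, 0.03 and 0.06 for end joining, and -0.01 and -0.04 for mismatch repair and clamp loading. Against vehicle none of these named genes reached an adjusted p under 0.05 without the block or with the block alone, and with block and offsets Apex1 passed as lower with MFI8 (-0.14, edgeR adjusted p = 0.031). Between the compounds Polb, the polymerase of base excision, was 0.27 higher with MFI8 (standard error 0.092, edgeR adjusted p = 0.588, and 0.0453 with the block), and it was named after its values were seen.

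Genes of S phase and mitosis, in which many repair genes are expressed, had medians slightly below 0 with both compounds. Of 25 genes 18 lay below 0 with MFI8 (median -0.03) and 15 with MASM7 (median -0.04), 3 of them in each case at an unadjusted p under 0.05 (12%, beside 9.86% and 10.2% of all genes), and 0 genes lay above 0 at that level. With the block 3 passed for MFI8 (12%, beside 5.04%) and 2 for MASM7 (8%, beside 3.88%). The 3 for MFI8 were Ccna2 and Aurka, which were lower, and Cdt1, which licenses replication origins and was higher (0.20 with the block, edgeR adjusted p = 0.037, and 0.186 with block and offsets). With the offsets the MASM7 median was -0.02. With block and offsets 3 of the 25 passed for MFI8 and 1 for MASM7, beside 4.89% and 1.6% of all genes. Ccna2, which drives S phase and entry into mitosis, was at 444 and 483 CPM with vehicle, 427 and 421 under MASM7 and 414 and 408 under MFI8, a log2 fold change of -0.17 with MFI8 (standard error 0.054, edgeR adjusted p = 0.388, and 0.0229 with the block) and -0.13 with MASM7. Cdk1 was at -0.14 and -0.05 and Top2a at -0.16 and -0.15. For Cdk1 with MFI8 the edgeR adjusted p was 0.434 without the block, 0.0582 with it and 0.0119 with block and offsets. The share of cells in each phase was not measured in these libraries, and its part in the values of the repair genes was not tested.

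Some targets of p53, the transcription factor that DNA damage stabilizes, had larger differences than the repair lists. Of 19 tested genes 4 were higher with MFI8 at an unadjusted p under 0.05 and 0 lower (21.1%, beside 9.86% of all genes), and with MASM7 1 and 0 (5.26%, beside 10.2%). With MFI8 12 of the 19 lay above 0 and 7 below, and the list's median was 0.06 with MFI8 and 0.08 with MASM7. Gadd45a, a stress gene that p53 and other factors induce, was at 4.95 and 7.15 CPM with vehicle, 5.41 and 6.48 under MASM7 and 9.75 and 18.5 under MFI8. Both MFI8 libraries lay above the other 4, one of them by far. The log2 fold change was 1.23 (standard error 0.28, edgeR adjusted p = 0.269, and 8.33e-07 with the block). Plk3 was at 24.7 and 22.3 CPM with vehicle, 24.7 and 25.6 under MASM7 and 28.6 and 32.1 under MFI8 (0.37, standard error 0.090, edgeR adjusted p = 0.316, and 0.0043 with the block). Sesn2, a stress gene of nutrient signalling, was at 25.7 and 30.3 CPM with vehicle, 32.4 and 38.3 under MASM7 and 34.0 and 44.2 under MFI8 (0.48 and 0.33, edgeR adjusted p = 0.357 and 0.477, 3.94e-05 and 0.00874 with the block, and 0.000392 and 0.128 with block and offsets). Bax was at 0.02 and 0.13. These genes answer to other stress pathways as well, and no repair gene among the 62 had a difference of that size.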

How the data were processed

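RNA-seq libraries of WT MEFs were made from 1 µg of total RNA by polyadenylated RNA selection. The authors trimmed reads with Trimmomatic, aligned them to mm10 (GRCm38) with STAR and counted reads on exons with featureCounts, and they deposited raw counts per gene. The authors also deposited TPM values, which were used for levels between genes. Annotation release and strand setting of the counting are not given in the sources used here, and 23 of the 62 members share exon bases with another protein-coding gene. The deposited normalized counts were not used.

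Genes passing filterByExpr (14290) were fitted on raw counts of all 6 libraries in edgeR 4.0.16 (R 4.3.3) with TMM factors of 0.991 to 1.01 and 1 coefficient per group, and tested by quasi-likelihood at an adjusted p (Benjamini-Hochberg, over all of them) under 0.05. Its p-values measure the spread between these libraries. An exact permutation test of 2 against 2 libraries cannot go below 0.333 and was not run. The fit code was tried on simulated counts with changes larger than those of any member, so that trial says nothing of small differences. Recovery was not required there of the fit without the block when a replicate effect was simulated. Counts carry counting error only in part, since reads are not independent molecules. Alternatives used DESeq2 1.42.0 and limma 3.58.1. GC content and length came from GENCODE vM21 (GRCm38), which covered 97.9% of the genes tested, and their offsets were lowess fits per library with a span of 0.3.

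Replicate numbers come from the labels, which name no shared batch. Differences of replicate 2 minus replicate 1 correlated between groups (Pearson's r across genes 0.152 to 0.188 for the 3 pairs of groups, and 0.508 to 0.621 over the more highly expressed 7145 genes), so the fit with the replicate block is printed beside results it changed.

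Members, families and lists were chosen with earlier results of these data known. Genes were named by rule: in each family the smallest p for either compound and the highest and lowest mean TPM, any member with an unadjusted p under 0.05 for both compounds, and in each list the 2 smallest p for either compound. Genes named beyond it (such as Ercc2, Msh3, Rad51c, Rad54b and Fancg, other subunits, and markers) were chosen after their values were seen. Rad50, Ercc3, Pole, Rad54b, Rad51d, Xrcc2, Rad9a and Fancd2 were among the 12 members with no promoter window. Values of 4 members are not reported here one by one and were left out of the figures, while counts, medians and tests cover all 62.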

Additional observations from a re-analysis of the deposited data

How the results depend on the processing

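Without the replicate block, the count of members called stayed at 0 in each of the 3 comparisons under every other alternative run without it, including each library left out. The block gave 2 members for MFI8, 5 for MASM7 and 3 between the compounds, and with block and offsets 0, 0 and 3. It changed no other call of a member. The cause was not tested.

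Medians of the members' log2 fold changes lay near 0 and moved by more than the spread between libraries in some alternatives. For MFI8 (0.022) the median was 0.047 with limma on log2(TPM + 1), 0.0089 with the offsets and 0.0080 with block and offsets. For MASM7 (-0.014) it was -0.025 with library size alone, 0.0053 with no filter beyond 1 count, -0.030 with limma, 0.011 with the offsets and 0.011 with block and offsets, and leaving out libraries gave -0.025 to -0.0015. The replicate 1 libraries alone, an alternative added later, gave 0.011 and the replicate 2 libraries -0.034. For MFI8 against MASM7 (0.039) it was 0.061 with library size alone, 0.027 with no filter, 0.074 with limma, 0.027 with the offsets and 0.026 with block and offsets, and leaving out libraries gave 0.012 to 0.049. The sign of the MASM7 median thus depends on the processing.

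A set of 23 values of single members, which does not cover every member, was recomputed under 17 alternatives. Of these 391 log2 fold changes, 376 kept direction and side of the threshold, 12 passed with the block or with block and offsets, and 3 turned sign. These were Rad18 with MASM7, at 0.037 with the offsets, 0.036 with block and offsets and 0.013 without MASM7 replicate 2, where leaving out each library in turn gave -0.097 to 0.013. Members outside the set turned sign as well. With MASM7 Atm, Atr and Chek1 went from -0.07, -0.05 and -0.04 to 0.05, 0.11 and 0.05 with the offsets.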
